A study of Mus musculus with 2 samples.

Results

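The genes described here encode the proteins that tie integrins to actin at focal adhesions and tie the cytoskeleton to the nucleus across the nuclear envelope. They were 48 named genes, taken by symbol from a table of 55414 mouse genes without use of their values: 42 of the adhesion plaque and 6 of the nuclear envelope. Of the 48 genes, 41 had at least 20 estimated counts over both libraries, as did 12772 genes in all, and log2 differences are given for these. A further 4 genes had 1 to 19 counts and 3 had 0 counts in both libraries.

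At a focal adhesion, talin and kindlin bind integrin tails and activate the receptor, and talin, vinculin, actinin, filamin and tensin link it to actin filaments. The kinases FAK and PYK2 and docking proteins such as paxillin pass the signal on to Rac and Arf regulators, and LIM proteins such as zyxin gather where actin bears force. Nesprins and SUN proteins form the LINC complex, which spans the nuclear envelope and couples actin to the lamins beneath it. Macrophages place many of the same proteins in podosomes, which are small actin-rich contacts with the substrate.

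The cells were RAW246.7, as the labels spell it, a cultured mouse line with macrophage character, and their poly(A) RNA was sequenced. The stretched cells were under 20% elongation strain loading for 24 h, and the treatment label does not say whether it was steady or cyclic. The control cells were kept for 24 h under a loading that the labels call normal, with no strain value, so it is not known whether they bore no strain or a lower one. The labels also give the tissue as synovial membrane, and no knockout, agent or other treatment is named for either group. With 1 library for each group and no replicates, how far cultures vary is unknown and no p-value was computed. The intervals given below hold only counting error, and since the labels name no molecular identifiers, copies made by PCR may be among the counts. Because RNA of whole cultures was sequenced, fewer cells of a kind and less RNA per cell cannot be told apart.

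The stretched library held 13391645 estimated counts and the control library 14769100. Macrophage markers were abundant in both by FPKM, which corrects for transcript length and depth: Lyz2, lysozyme, stood at 2289 FPKM in stretched and 1320 FPKM in control cells, and Csf1r, the receptor for macrophage colony-stimulating factor, at 374 and 333 FPKM. Of 12 macrophage markers 11 had at least 20 counts; Mrc1, the mannose receptor, had 1 count in stretched and 4 in control cells. The counting interval of the log2 difference lay above 0 for 6 of the 11, below 0 for 4 and held 0 for 1. The 4 lower ones were Ptprc (-0.26), Fcgr1 (-0.41), Spi1 (-0.12) and Tyrobp (-0.11). The 12 synovial fibroblast markers summed to 23 counts in stretched and 19 in control cells, and Col1a2, Col3a1, Pdgfra, Thy1, Dcn, Pdpn, Fbln1 and Has2 were at 0 in both. The other marker lists summed to 116 counts in stretched and 221 in control cells for endothelium, 96 and 143 for T cells, 376 and 382 for B cells, and 21 and 45 for smooth muscle. The endothelial gap lay in Egfl7, with 73 counts in stretched and 181 in control cells, and the other 7 endothelial markers summed to 43 and 40. The 12 macrophage markers summed to 4221 FPKM in stretched and 3049 FPKM in control cells, and without Lyz2 the other 11 summed to 1933 and 1729 FPKM. The part of these markers in the differences below was not tested.

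Of the 41 genes with enough counts, 1 was at least 2-fold higher in stretched cells with a counting interval that excluded 0, and none was at least 2-fold lower. Over all 12772 genes the same rule was met by 3.12% in the higher direction and by 1.94% in the lower, or 5.06% in all. The 1 gene was Actn1, which encodes the actin crosslinker α-actinin-1. The median log2 difference of the 41 genes was -0.08 and that of all genes was -0.0014. The quartiles of the 41 genes lay at -0.17 and 0.18, close to those of all genes at -0.18 and 0.21. Together the 48 genes held 90571 counts in stretched and 95638 in control cells, or 6727 and 6511 CPM (counts scaled to library size).

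Small differences were common at this depth. The counting interval lay above 0 for 14 of the 41 genes and below 0 for 16, against 22.9% and 21.9% of all genes. The interval narrows as counts rise, so these genes were also compared at a minimum of 1000 counts. Among the 34 with at least 1000 counts, 12 lay above 0 and 16 below, where 27.4% and 30.3% of all genes at that depth did. The interval thus excluded 0 for 82.4% of the 34 genes, against 57.7% of all such genes. What lies behind this gap was not tested, and genes were not matched for depth above that minimum. The median size of the difference, without its sign, was 0.17 in those 34 genes and 0.14 in all 6050 genes with at least 1000 counts. The plot of differences against abundance shows the genes within the cloud of all genes.

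**Figure D1:**
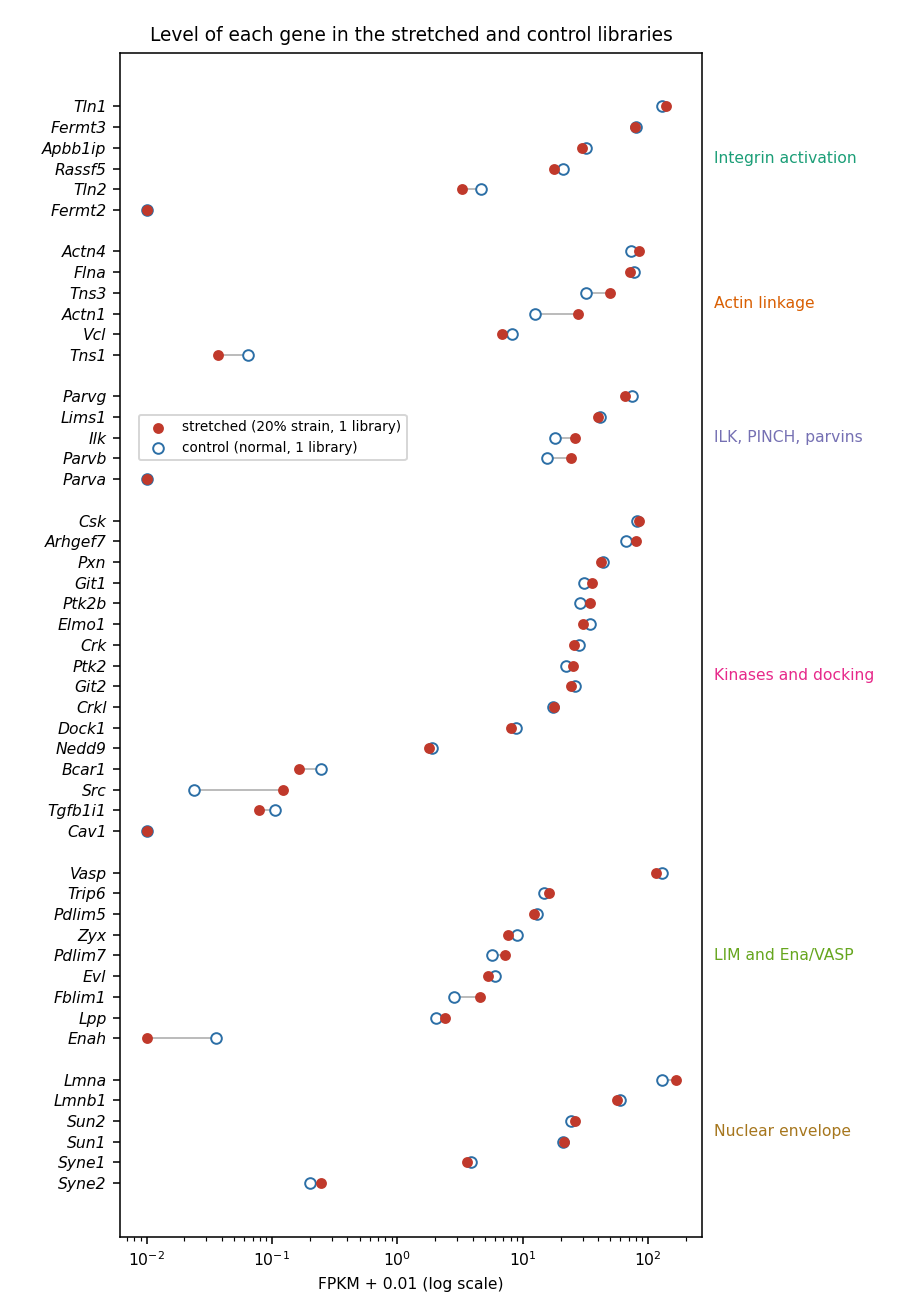
Level of each of the 48 genes in FPKM plus 0.01, on a log axis, in the stretched library (filled) and the control library (open), grouped by role and ordered by level. The levels span from 0 to above 100 FPKM and most pairs of points nearly coincide; Actn1 is the widest separated pair among genes above 1 FPKM.

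The integrin activators were led by Tln1, talin-1, the main integrin-activating adaptor of most cells. Tln1 had 16793 counts in stretched and 17622 in control cells, at 138 and 130 FPKM, a log2 difference of 0.06 with a 95% interval of 0.03 to 0.09. Its paralog Tln2 had 563 counts in stretched and 904 in control cells, at 3.26 and 4.61 FPKM, with a log2 difference of -0.56 and an interval of -0.71 to -0.40. The FPKM of Tln1 was therefore 42.5 times that of Tln2 in stretched and 28.2 times in control cells. Fermt3, kindlin-3, the kindlin of blood cells, stood at 78.5 FPKM in stretched and 80.0 FPKM in control cells, and its log2 difference was -0.08 over all transcripts and 0.0042 over protein-coding ones. Fermt2, the kindlin of adherent tissues, had 0 counts in both libraries. A count of 0 allows up to 3 counts, or 0.223 CPM in stretched and 0.204 CPM in control cells.

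Both Rap1 effectors of this group were lower in stretched cells by less than 2-fold. Apbb1ip encodes RIAM, which brings talin to the membrane, and had 1209 counts in stretched and 1486 in control cells (log2 difference -0.17, interval -0.28 to -0.06). Rassf5, which encodes RAPL, had 796 counts in stretched and 1059 in control cells (log2 difference -0.29, interval -0.42 to -0.15). Rassf5 overlaps Eif2d on the other strand, with 829 and 1001 counts. The sources used here do not give the strand setting of the counting, so how reads of the pair were divided is uncertain. Of the 6 listed activators, 5 had enough counts, 4 of these were below 0 and 1 above, with a median of -0.17. Over all 12772 genes 6405 were below 0, and Fermt3, among the 4, was at 0.0042 over protein-coding transcripts.

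Among the actin linkers, Actn1 was 2.16-fold higher in stretched cells. It had 1414 counts in stretched and 715 in control cells, at 27.4 and 12.4 FPKM, and a log2 difference of 1.11 with an interval of 0.98 to 1.24. Of all genes tested, 2.74% had a larger log2 difference, and of the 6050 genes with at least 1000 counts, 0.81% were at least 2-fold higher. The authors' deposited table gives the same gene a log2 fold change of 1.11 and lists it as Up, as it does 2.18% of its genes. Actn1 lies on chromosome 12 from 80214321 to 80307145 on the minus strand of GRCm39, and 1 protein-coding transcript held 96.4% of its counts in stretched and 95.2% in control cells.

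Its paralog Actn4, the other α-actinin of cells outside muscle, differed far less. Actn4 had 4700 counts in stretched and 4537 in control cells, at 84.3 and 72.6 FPKM (log2 difference 0.18, interval 0.12 to 0.24). Actn1 thus made up 24.5% of the summed FPKM of the pair in stretched and 14.6% in control cells. Actn4 was the more abundant of the pair in both libraries.

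Tns3, tensin-3, which binds integrin tails and actin, had 5605 counts in stretched and 3984 in control cells. Its level was 49.7 FPKM in stretched and 32.1 FPKM in control cells, with a log2 difference of 0.62 and an interval of 0.56 to 0.68. That is the largest difference after Actn1 in this group, and 7.54% of all genes tested had a larger one. Flna, filamin A, which crosslinks actin into networks, was lower, with 8159 counts in stretched and 9969 in control cells (log2 difference -0.16, interval -0.21 to -0.12). Vcl, vinculin, which binds stretched talin and reinforces its grip on actin, had 512 counts in stretched and 664 in control cells (log2 difference -0.25, interval -0.42 to -0.08). Vcl overlaps Ap3m1 on the other strand, which held 2386 and 2707 counts, so its value is uncertain. Tns1, tensin-1, had 5 counts in stretched and 1 in control cells while its FPKM ran the other way, at 0.0271 and 0.0546, so it gives no direction.

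The promoter of Vcl is shown because it holds a CArG box, the site read by serum response factor in genes of the actin cytoskeleton, and Vcl has counts in both libraries. The sequence is the 250 bases before the start of the gene in RefSeq, GRCm38.p6, chr14:20929148-20929397, plus strand, with the box in capitals 227 bases before the start.
Vcl promoter: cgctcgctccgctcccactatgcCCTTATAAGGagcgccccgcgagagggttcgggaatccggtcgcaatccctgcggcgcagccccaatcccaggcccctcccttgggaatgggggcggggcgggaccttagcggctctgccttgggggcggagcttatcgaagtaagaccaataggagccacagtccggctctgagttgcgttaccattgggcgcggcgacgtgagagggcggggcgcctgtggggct
Promoters of 41 of the 48 genes were in that table, and 2 of them, Vcl and the undetected Fermt2, held the box on either strand, 4.88% against 1.62% of 27025 genes. GGAATG, the core letters of TEAD sites, stood in 8 of the 41 promoters, 19.5% against 14.4% of all genes, and TGANTCA, the AP-1 letters, in 3, or 7.32% against 7.82%. The median log2 difference was 0.01 in the 8 genes with GGAATG and -0.07 in the 28 tested genes without it. A match is a description of letters and says nothing of binding.

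**Figure D2:**
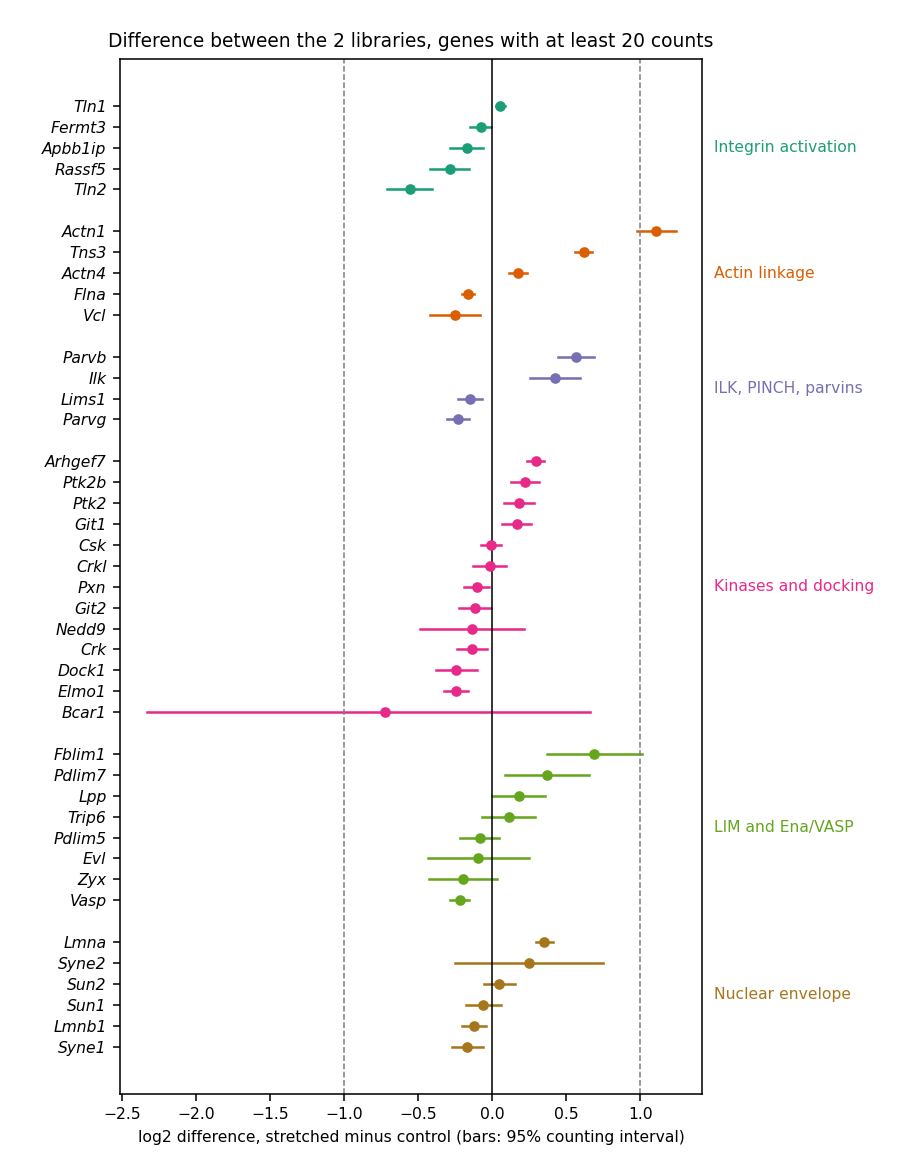
Log2 difference, stretched minus control, of each gene with at least 20 counts; points are the single difference between the 2 libraries, bars are 95% counting intervals and dashed lines mark 2-fold. Only Actn1, at 1.11, lies past a dashed line, and Bcar1, with 20 counts in all, has the widest bar.

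The complex of integrin-linked kinase, PINCH and parvin, an adaptor for actin at the adhesion, held members that differed in opposite directions. Ilk had 649 counts in stretched and 527 in control cells, at 25.9 and 18.1 FPKM (log2 difference 0.43, interval 0.26 to 0.59). Ilk overlaps Rrp8 and Taf10 on the other strand, with 528 and 1405 counts in stretched and 526 and 1497 in control cells, so its value is uncertain. Lims1, PINCH-1, had 2412 counts in stretched and 2916 in control cells (log2 difference -0.15, interval -0.23 to -0.07).

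The parvins, which bind both integrin-linked kinase and actin, divided. Parvb had 1314 counts in stretched and 966 in control cells, at 24.0 and 15.6 FPKM (log2 difference 0.57, interval 0.45 to 0.69). Parvg, the parvin of blood cells, had 2475 counts in stretched and 3164 in control cells, at 65.1 and 74.2 FPKM (log2 difference -0.23, interval -0.31 to -0.15). The intervals of the pair do not overlap, and Parvb made up 26.9% of their summed FPKM in stretched and 17.4% in control cells. The genes are neighbours on the plus strand of chromosome 15, with 8338 bases between them. Parva, α-parvin, which is widespread in other tissues, had 0 counts in both libraries.

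Of the signalling genes, 13 of 16 had enough counts, with a median log2 difference of -0.10. The focal adhesion kinases were both slightly higher in stretched cells. Ptk2, FAK, had 1631 counts in stretched and 1571 in control cells (log2 difference 0.18, interval 0.08 to 0.28). Ptk2b, PYK2, the FAK relative abundant in blood cells, had 1871 counts in stretched and 1747 in control cells (log2 difference 0.22, interval 0.13 to 0.32). Their balance was close to even: Ptk2 made up 42.0% of the summed FPKM of the pair in stretched and 43.5% in control cells.

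Src, the founding member of its kinase family, was almost undetected, with 8 counts in stretched and 1 in control cells. That is below the minimum of 20, and its log2 difference of 2.63 has an interval of 0.23 to 8.60. The authors' deposited table nevertheless lists Src as Up, with a log2 fold change of 2.97, and lists no other of the 48 genes except Actn1 as Up and none as Down, where 1.55% of its genes are Down. Lyn, another Src-family kinase, stood at 54.7 FPKM in stretched and 52.4 FPKM in control cells, against 0.112 and 0.0141 FPKM for Src. Csk, which phosphorylates and restrains these kinases, had 3233 counts in stretched and 3541 in control cells, with a log2 difference of -0.0056 and an interval of -0.07 to 0.06.

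Among the docking proteins, Pxn, paxillin, had 2123 counts in stretched and 2488 in control cells (log2 difference -0.10, interval -0.19 to -0.02). The lower total rests on a noncoding transcript with 0 counts in stretched and 480 in control cells. Over its protein-coding transcripts alone, Pxn had 2022 counts in stretched and 1927 in control cells, and the log2 difference was 0.20 with an interval of 0.10 to 0.29, so its direction turns with the transcripts counted. Its relative Tgfb1i1, Hic-5, had 4 counts in stretched and 5 in control cells. Bcar1, p130Cas, which is unfolded and phosphorylated under stretch, had 7 counts in stretched and 13 in control cells, with an interval of -2.33 to 0.66. Nedd9, the Cas protein of lymphocytes, had 126 and 151 counts, with an interval of -0.49 to 0.22. A difference in either Cas gene was not detectable at this depth. Cav1, caveolin-1, the coat protein of caveolae, had 0 counts in both libraries.

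The exchange factors and their partners that act after Cas and paxillin differed in both directions. Arhgef7, β-PIX, a Rac and Cdc42 exchange factor, had 4875 counts in stretched and 4336 in control cells (log2 difference 0.29, interval 0.24 to 0.35). Its leading transcript had 3907 and 3956 counts (log2 difference 0.11, interval 0.04 to 0.17), so part of the gene difference lies on other transcripts. Git1, the partner of Arhgef7 and an Arf GTPase-activating protein, had 1754 counts in stretched and 1704 in control cells (log2 difference 0.17, interval 0.07 to 0.26). Dock1 and Elmo1, which together form the DOCK180 and ELMO exchange factor for Rac, were lower by nearly the same amount. Dock1 had 751 counts in stretched and 968 in control cells (log2 difference -0.24, interval -0.38 to -0.10). Elmo1 had 2307 counts in stretched and 2977 in control cells (log2 difference -0.24, interval -0.32 to -0.16). Close relatives did not follow the same directions. Arhgef6, α-PIX, had 5214 counts in stretched and 6751 in control cells (log2 difference -0.25), and Elmo2 had 1097 and 1012 (0.24). For Dock2, with 4181 and 4572 counts, and Dock5, with 728 and 736, the interval holds 0. These 4 relatives are named after their values were seen.

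The adaptor Crk, which joins Cas to DOCK180, had 1454 counts in stretched and 1744 in control cells (log2 difference -0.14, interval -0.24 to -0.04). Its relative Crkl had 1290 and 1423 counts, with an interval of -0.13 to 0.09. Git2 had 1340 counts in stretched and 1582 in control cells (log2 difference -0.11, interval -0.22 to -0.0080). Git2 overlaps Ankrd13a on the other strand, with 1711 and 1781 counts, so its value is uncertain.

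Of the 9 LIM and Ena/VASP genes, 8 had enough counts and their median log2 difference was 0.01. Fblim1, migfilin, which binds filamin, had 201 counts in stretched and 136 in control cells, at 4.58 and 2.82 FPKM. Its log2 difference of 0.69 is the second highest of the 41 genes, and the interval runs from 0.37 to 1.01. Most of that difference lies on a transcript with 58 counts in stretched and 0 in control cells. The leading Fblim1 transcript had 134 and 130 counts (log2 difference 0.17, interval -0.19 to 0.53). Pdlim7, Enigma, had 228 counts in stretched and 192 in control cells (log2 difference 0.37, interval 0.09 to 0.66). Lpp, a relative of zyxin, had 533 and 513 counts (log2 difference 0.18, interval 0.0032 to 0.36). Lpp shares its strand with a pseudogene model that held 412 and 452 counts, so its count depends on how reads were divided.

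Zyx, zyxin, which gathers on tensed actin and recruits VASP, had 286 counts in stretched and 357 in control cells, with a log2 difference of -0.19 and an interval of -0.42 to 0.03. Trip6 had 503 and 508 counts, with an interval of -0.07 to 0.29, and Pdlim5 had 874 and 1009 counts, with an interval of -0.21 to 0.05. For these 3 genes the interval holds 0. Vasp, which speeds actin filament growth, had the highest FPKM of this role, at 116 FPKM in stretched and 130 FPKM in control cells. Vasp had 3574 counts in stretched and 4532 in control cells (log2 difference -0.22, interval -0.28 to -0.15). Its relatives were scarce, with 135 counts in stretched and 157 in control cells for Evl, whose interval runs from -0.43 to 0.25, and 0 in stretched and 3 in control cells for Enah.

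Lmna, which encodes the A-type lamins that stiffen the nucleus, had the highest FPKM of the 48 genes in stretched cells. Lmna had 5511 counts in stretched and 4705 in control cells, at 166 and 128 FPKM (log2 difference 0.35, interval 0.30 to 0.41), and 15.7% of all genes tested had a larger difference. Lmnb1, the B-type lamin, had 2321 counts in stretched and 2751 in control cells (log2 difference -0.12, interval -0.20 to -0.04). The FPKM of Lmna was 2.95 times that of Lmnb1 in stretched and 2.16 times in control cells.

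The LINC genes differed little. Syne1, nesprin-1, had 1381 counts in stretched and 1690 in control cells (log2 difference -0.17, interval -0.27 to -0.06). Syne2, nesprin-2, had 73 and 67 counts, with an interval of -0.25 to 0.75. Sun1 had 1137 and 1292 counts, with an interval of -0.18 to 0.06, and Sun2 had 1449 and 1528 counts, with an interval of -0.06 to 0.15. For Syne2, Sun1 and Sun2 the interval holds 0, and Sun1 made up 44.8% of the summed FPKM of the SUN pair in stretched and 46.2% in control cells.

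**Figure D3:**
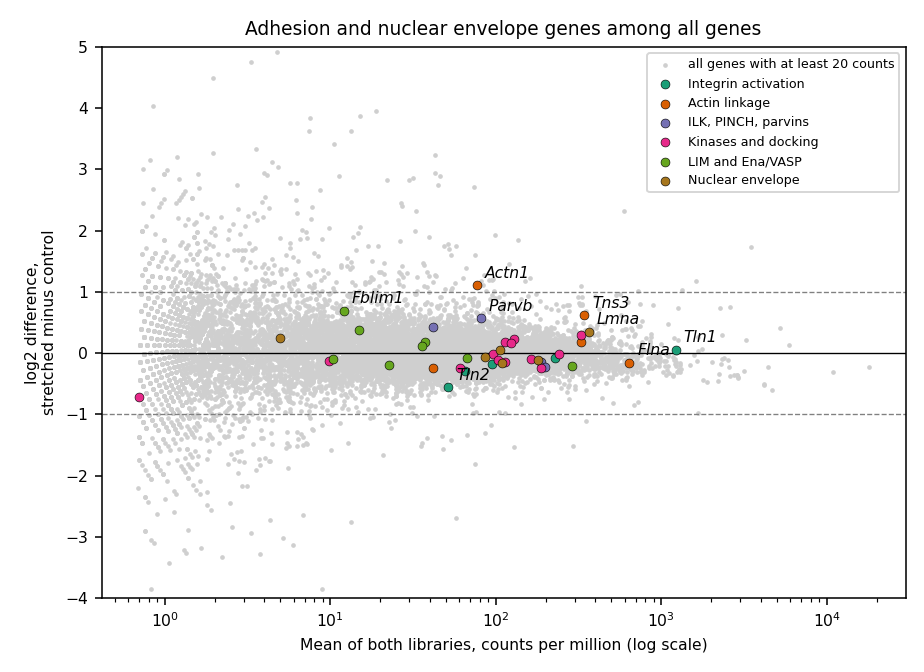
Log2 difference, stretched minus control, against the mean CPM of both libraries on a log axis, for all genes with at least 20 counts (grey) and the 41 genes described (coloured by role); dashed lines mark 2-fold and 10 genes lie outside the vertical range. Actn1 is the only coloured point past a dashed line.

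Lmna makes lamin A and lamin C by different 3′ ends, and only the lamin A precursor ends in the CaaX codons at which the protein is farnesylated before its tail is cut off. The last 30 coding bases of each transcript in GENCODE M21, minus strand of chromosome 3, are shown because they tell the products apart. Capitals mark the CaaX codons of lamin A and, in lamin C, the 17 bases after the last letter that matches the precursor. That mark starts inside a codon.
Lamin A precursor: agccagagctcccagaacTGCAGCATCATG
Lamin C: catcaccaccgtgTGAGTGGCAGCCGCCGC
Compared letter by letter from the start codon, the transcripts are the same for 1705 coding bases. Lamin A stood at 37.3 FPKM in stretched and 26.3 FPKM in control cells, and lamin C at 125 and 98.2 FPKM. Lamin A was 23.0% of their summed FPKM in stretched and 21.1% in control cells. Both transcripts were thus higher in stretched cells with a similar split, as the deposited estimates assign them. These are RNA levels, and protein was not measured.

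The deposited transcript estimates were compared for the 39 genes with at least 100 counts in each library and more than 1 transcript. The leading transcript was not the same in the 2 libraries for 7 of them, Tns3, Evl, Ptk2, Ilk, Flna, Git2 and Sun2, which is 17.9%, against 12.0% of 8533 genes. The share of the transcript that led in control cells differed by at least 20 percentage points for 6 of the 39, or 15.4%, against 14.0% of all genes. Both shares are near the background. The cases below were chosen after their values were seen, and transcripts that differ in 1 coding segment also differ in their ends, so these are estimates of assignment rather than of splicing.

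In 6 genes, transcripts with counts differ by 1 alternative coding segment. For Flna the leading transcript of each library lacks the segment. The segments are shown from GENCODE M21 with 15 bases on each side, in capitals within lower case. They are shown because the transcripts were sorted by them, though the transcripts also differ in their ends.
Ptk2 (chromosome 15, minus strand): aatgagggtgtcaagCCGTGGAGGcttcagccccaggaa
Git1 (chromosome 11, plus strand): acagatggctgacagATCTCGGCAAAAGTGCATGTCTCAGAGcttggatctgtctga
Flna (chromosome X, minus strand): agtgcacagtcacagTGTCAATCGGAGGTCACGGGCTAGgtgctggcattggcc
Zyx (chromosome 6, plus strand): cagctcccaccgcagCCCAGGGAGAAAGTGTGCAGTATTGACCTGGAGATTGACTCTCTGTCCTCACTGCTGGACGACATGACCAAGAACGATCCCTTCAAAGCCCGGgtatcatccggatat
Sun1 (chromosome 5, plus strand): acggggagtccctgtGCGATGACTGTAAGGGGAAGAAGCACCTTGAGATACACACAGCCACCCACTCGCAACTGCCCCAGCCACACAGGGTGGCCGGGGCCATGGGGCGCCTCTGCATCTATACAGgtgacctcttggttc
Crk (chromosome 11, plus strand): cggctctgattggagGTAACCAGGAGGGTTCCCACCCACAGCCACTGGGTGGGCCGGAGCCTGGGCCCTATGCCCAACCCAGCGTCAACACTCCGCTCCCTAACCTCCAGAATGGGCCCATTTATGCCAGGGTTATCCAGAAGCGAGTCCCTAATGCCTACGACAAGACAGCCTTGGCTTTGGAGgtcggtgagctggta
All but that of Crk are whole numbers of codons; the 170 bases of Crk shift the frame, and with them Crk makes the longer CrkII and without them CrkI, which lacks the second SH3 domain.

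For Zyx, transcripts with the 93-base segment held 233 counts and those without it 35 in stretched cells, against 185 and 152 in control cells. The share with the segment was 86.9% in stretched cells, with an exact Clopper-Pearson 95% interval of 82.3% to 90.7%, and 54.9% in control cells, with an interval of 49.4% to 60.3%. Shares here are of the counts on protein-coding transcripts that could be placed as with or without the segment. For Ptk2, 82.8% of the gene's counts in stretched and 79.2% in control cells were placed. Its 9-base segment was in 63.8% of the placed counts in stretched and 37.3% in control cells. For Git1 the 27-base segment was in 29.1% in stretched and 7.35% in control cells. These 3 segments took a larger share in stretched cells. For Sun1 the 111-base segment was in 78.5% of counts in stretched and 91.9% in control cells. For Crk the CrkII form held 52.5% in stretched and 65.3% in control cells, and for Flna the 24-base segment was in 22.0% and 27.4%. These 3 took a smaller share in stretched cells. The 6 genes were picked after their values were seen, so the gaps between the libraries say nothing of these genes as a set. The share of all genes with gaps of this size was not computed. The intervals leave out error in the assignment of counts to transcripts, and the spread between cultures is unknown.

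**Figure D4:**
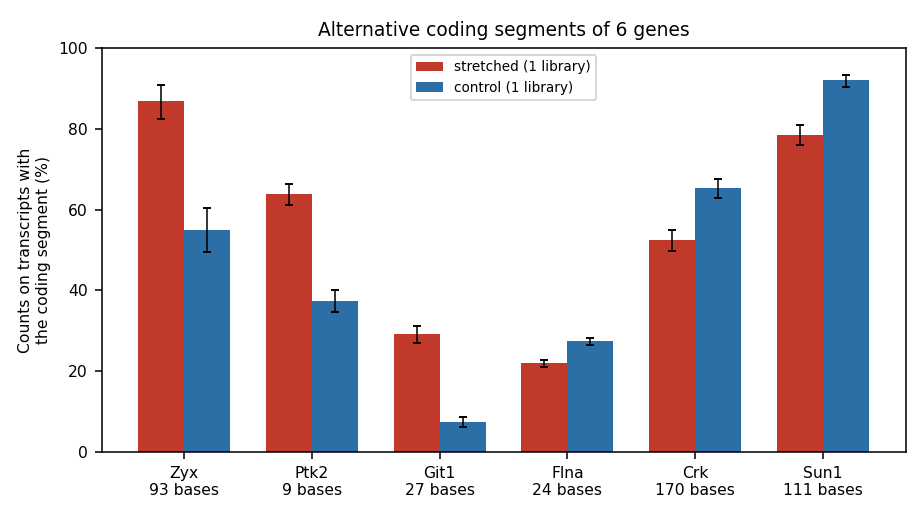
Share of counts, in percent, on transcripts with the named coding segment in the stretched library (red) and the control library (blue). Shares are of counts on protein-coding transcripts that could be placed as with or without the segment. Bars start at 0 and error bars are exact 95% intervals for counting error. Zyx, Ptk2 and Git1 have the taller bar in stretched cells, and Flna, Crk and Sun1 in control cells.

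Other genes of these structures were counted from 3 lists. Of 55 further adhesion plaque genes 43 had enough counts, with a median log2 difference of -0.0033. The 2-fold rule was met by 2 as higher, or 4.65%, and by 1 as lower. Over all 12772 genes 3.12% met it as higher and 1.94% as lower. Lims2, PINCH-2, the paralog of Lims1, had 120 counts in stretched and 44 in control cells (log2 difference 1.56, interval 1.06 to 2.11). Cass4, a Cas family protein, had 331 counts in stretched and 176 in control cells (log2 difference 1.03, interval 0.77 to 1.31). Sorbs3, vinexin, which binds vinculin, had 25 counts in stretched and 59 in control cells (log2 difference -1.10, interval -1.85 to -0.42). The next largest differences were those of Flnc, filamin C, with 1384 and 954 counts (0.66), and Plec, plectin, which links intermediate filaments, with 7147 and 5523 counts (0.50).

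Of 32 podosome and Src-family genes 30 had enough counts, with a median of -0.04. None was at least 2-fold higher and 1 was lower, where 3.12% and 1.94% of all genes were. The 1 was Lsp1, an actin-binding protein of leukocytes, which had 327 counts in stretched and 1057 in control cells (log2 difference -1.57, interval -1.75 to -1.39). Fyb, the adaptor ADAP, had 1033 counts in stretched and 1704 in control cells (-0.60), and Pstpip2, a membrane-bending protein, had 936 and 687 (0.57). Of 29 other nuclear envelope genes 26 had enough counts and 0 were at least 2-fold higher or lower, with a median of -0.05. The largest difference there was that of Vrk1, a kinase of the chromatin anchor BAF, with 1065 counts in stretched and 1574 in control cells (-0.44), followed by Nemp2, with 257 and 341 (-0.28).

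**Figure D5:**
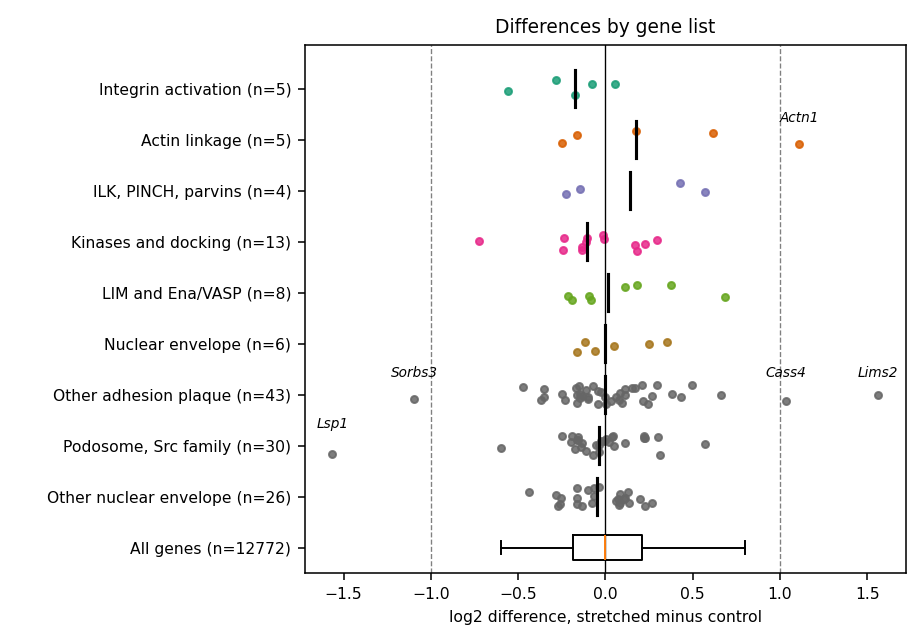
Log2 difference, stretched minus control, of each gene (points) by role and by list, with the median as a black bar; the box for all 12772 genes spans the quartiles, its whiskers the 5th and 95th percentiles, and dashed lines mark 2-fold. Actn1, Lims2 and Cass4 lie above 2-fold and Sorbs3 and Lsp1 below.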

How the data were processed

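Poly(A) RNA of 1 stretched and 1 control culture was sequenced after second-strand marking with dUTP, per the labels' protocols. The submitters' processing notes name StringTie and GRCm39; the sources used here do not give the aligner, versions or strand setting. For genes and transcripts the deposited tables hold estimated counts and FPKM (fragments scaled to transcript length and library depth) per the file headers, and the authors' log2 fold change with a p-value and adjusted p-value per gene. The deposited counts are whole numbers that lay within 0.05 of the value rebuilt from FPKM and length, rounded up, for at least 99.98% of transcripts. Tables that repeat rows of these, and the mapping summary, were not used here.

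Gene counts were scaled with edgeR 4.0.16 TMM factors in R 4.3.3 over all genes (1.01 for stretched, 0.995 for control). The log2 difference is that of scaled counts after adding a prior of 0.5 to each, stretched over control, and its 95% interval is exact conditional binomial. A gene met the size rule with at least 20 counts over both libraries, a difference of at least 2-fold and an interval without 0. The gene difference, its interval and the size rule were run on simulated counts with Poisson error only. Such counts hold no spread between cultures and no transcript assignment, so the run checks the code alone. Of the alternatives, normalization, low-count minimum, prior count, unit, overlapping models, rounding and, after seeing the data, the transcripts counted were varied. Sequences come from GENCODE M21 transcripts (GRCm38), in which 282 of 288 transcripts of these genes were found, and RefSeq promoters; gene coordinates are those of the deposited tables.

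All 48 listed genes are described by role. From the 3 further lists the text names genes meeting the size rule and the next 2 by absolute log2 difference; Lyn beside Src, and Arhgef6, Elmo2, Dock2 and Dock5, were chosen after their values were seen. All 48 members and all but 2 of 170 other list and marker entries matched a symbol. The members and lists were chosen with earlier results of these data known.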

Additional observations from a re-analysis of the deposited data

How the results depend on the processing

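With a minimum of 1 count in place of 20, 2 of the 48 genes were at least 2-fold higher in stretched cells instead of 1; the gene that joins is Src, at 8 counts in stretched and 1 in control cells, because fewer counts then suffice. The count of genes at least 2-fold lower was 0 under every alternative run: DESeq2 1.42.0 size factors, library totals, a minimum of 1 or 100 counts, a prior of 5 counts, log2(FPKM + 1), summed same-strand models, counts without rounding up and, chosen after seeing the data, protein-coding transcripts only. Across these the median log2 difference of the genes ran from -0.08 to -0.0058 (protein-coding transcripts only) and that of Actn1 from 1.08 to 1.12. The sign of Csk changed with library totals, and those of Crkl, Csk and Sun1 on the log2(FPKM + 1) scale, where Tln1 was at 0.09, Tln2 at -0.40, Flna at -0.11 and Lims1 at -0.05; the cause was not tested. With protein-coding transcripts only, Pxn was at 0.20, Fermt3 at 0.0042 and Evl at 0.0032, each with its sign changed, and the intervals of Git2 and Pdlim7 then held 0. No paired analysis was possible because each group had 1 library. With 1 library per group no replicate could be left out. Depth limits Bcar1, Nedd9, Syne2 and Evl, whose intervals are wide.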

Other observations

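In some adhesion genes the counts lay on other transcripts in the 2 libraries, as the deposited estimates assign them; these genes were picked after their values were seen. For Tns3, transcript ENSMUST00000239091 had 3869 counts in stretched and 1313 in control cells, while ENSMUST00000020695 had 1464 and 2570. For Ilk, ENSMUST00000163389 had 452 counts in stretched and 130 in control cells, and ENSMUST00000033182 had 49 and 270. For Lims1, ENSMUST00000020078 had 1400 counts in stretched and 2577 in control cells, and ENSMUST00000238939 had 967 and 333. For Fblim1, ENSMUST00000105784 had 58 counts in stretched and 0 in control cells. For Pxn, the noncoding ENSMUST00000125007 had 0 counts in stretched and 480 in control cells. For the paxillin gene the coding ENSMUST00000067268 had 1860 counts in stretched and 1741 in control cells.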
